A study of Homo sapiens with 6 samples.

Results

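Genes for receptors of glutamate and GABA were examined in SH-SY5Y, a human line from a neuroblastoma that can take on neuron-like features, in which TDP-43 had been knocked down. TDP-43, the product of TARDBP, is a nuclear protein that binds RNA and DNA. The members are the rows of the expression table whose symbol names an AMPA, kainate, delta or NMDA receptor subunit, a metabotropic glutamate receptor, or a GABA-A or GABA-B receptor subunit, and this rule found 47 of 26372 gene symbols. Measured values played no part in the rule, although the rises of GRM8 and GRIA2 were already known when the members were chosen. Cells carried a lentivirus with either a control hairpin (shNC, 3 libraries) or a hairpin against TDP-43 (shTDP43, 3 libraries), each hairpin transcribed from a U6 promoter. Both groups were kept as stable lines under puromycin, with selection at 2 µg/mL for 2 weeks and 1 µg/mL for later culture. The labels do not say whether the lines were clones or mixed populations, nor whether libraries with the same hairpin stem from separate cultures. Each p-value therefore speaks only of the spread among these samples, and that spread may be technical. Poly(A) RNA was sequenced, and each library gave an FPKM value per gene, that is, its fragments scaled to the length of the gene and to the size of the library.

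Glutamate is the main excitatory transmitter of the central nervous system and GABA the main inhibitory one. AMPA, kainate and NMDA receptors are cation channels built from 4 subunits each, whereas metabotropic glutamate receptors signal through G proteins. GABA-A receptors are chloride channels made of 5 subunits, usually of alpha, beta and gamma type, and GABA-B receptors are G protein-coupled pairs of GABBR1 and GABBR2. In AMPA receptors the GRIA2 subunit, once its pore codon has been edited in the RNA by ADARB1, keeps the channel nearly closed to calcium.

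TDP-43 is known to prefer runs of UG repeats in RNA, so the annotated sequences of the tested receptor genes were searched for UG repeated 6 times without a break, on the sense strand only. Of the 14 receptor genes with enough signal to be tested, 2 held such a run in a spliced protein-coding transcript of GENCODE release 29 (build GRCh38), and 5.8% of all tested genes with such a transcript did. Both are shown with 30 bases around each run and with the run in capitals, because they are the tested members that hold the motif in a mature transcript. GRID1 has 2 runs in its 3′ UTR, at chr10:85599920-85599939 and chr10:85599942-85599953 on the minus strand, and GRIK3 has 1 in its 3′ UTR at chr1:36799610-36799621 on the minus strand.
GRID1: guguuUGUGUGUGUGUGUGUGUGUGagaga
GRID1: uugugcgccUGUGUGUGUGUGuuugugugu
GRIK3: gcaugcuggUGUGUGUGUGUGcacauguac
The 50 bases after an annotated RefSeq start were searched as well (assembly GRCh38.p14, 35116 starts, 51 of them from 34 of the 47 members). Only 14 starts (0.04%) had the run there, and 1 of these belonged to GRIA2. The last 30 of those 50 bases, at chr4:157220639-157220668 on the plus strand, are shown because GRIA2 was among the receptor genes that rose most.
GRIA2: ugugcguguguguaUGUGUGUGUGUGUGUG
The protein-coding GENCODE transcripts of GRIA2, whose principal start lies 99 bases away, do not include this run. In 12 of the tested members, GRIA2 among them, these letters were not in the annotated coding transcripts, and introns, where long UG runs are frequent, were not analysed here. A match describes the sequence and shows no binding.

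The 250 bases before the start were also read for CG pairs, which are the sites of cytosine methylation, for starts within 500 bases of the principal GENCODE start and clear of annotated exons. Of the 14 tested members, 4 had such a window. The windows of GRIA2, GRIA4 and GRM7 are shown, with each CG in capitals, because they span the range from few to many such pairs in genes that changed. They lie at chr4:157220369-157220618, chr11:105609744-105609993 and chr3:6860865-6861114, all on the plus strand of GRCh38.p14, from RefSeq.
GRIA2: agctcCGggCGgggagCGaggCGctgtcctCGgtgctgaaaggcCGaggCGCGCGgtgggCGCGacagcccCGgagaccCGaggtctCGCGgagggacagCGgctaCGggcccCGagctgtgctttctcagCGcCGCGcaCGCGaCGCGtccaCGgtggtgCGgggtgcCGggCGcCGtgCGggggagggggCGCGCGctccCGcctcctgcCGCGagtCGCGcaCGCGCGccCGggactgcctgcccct
GRIA4: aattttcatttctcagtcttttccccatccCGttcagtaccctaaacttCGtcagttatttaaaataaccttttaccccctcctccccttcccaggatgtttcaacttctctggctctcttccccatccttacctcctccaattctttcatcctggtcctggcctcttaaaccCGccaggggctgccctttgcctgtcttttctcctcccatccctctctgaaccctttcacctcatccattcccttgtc
GRM7: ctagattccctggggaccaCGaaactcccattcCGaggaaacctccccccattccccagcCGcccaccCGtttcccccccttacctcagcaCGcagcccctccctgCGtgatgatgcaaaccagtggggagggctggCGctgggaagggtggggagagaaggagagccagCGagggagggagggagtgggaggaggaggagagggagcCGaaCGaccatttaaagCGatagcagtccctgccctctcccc
CG reads the same on both strands. GRIA2 had 43 CG pairs, more than 99.0% of all RefSeq windows of this length hold, GRM7 had 11, which is also the median of all windows, and GRIA4 had 3. At least 1 CG was present in 93.9% of the windows. The window of GRIK3, which is not shown, had 29 CG pairs, more than 85.9% of all windows. Of the 3 members with a window that rose, GRIA2 and GRIK3 were thus rich in CG and GRIA4 poor in it.

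The label of the knockdown was checked first. TARDBP stood at 56.1, 56.2 and 56.6 FPKM in the shNC libraries and at 36.0, 33.1 and 34.8 FPKM in the shTDP43 libraries. That is 61.5% of control (log2 difference -0.69, SE 0.03; limma adjusted p = 2.84e-06). An exact two-sided permutation test of the 6 values gave p = 0.1, the lowest value it can give with 3 libraries per group. Of 14 markers of a noradrenergic neuroblastoma line 13 had enough signal for a test, whereas TH was near 0. Of these 13 genes, 7 were higher and 5 lower, where 18.5% of all tested genes were higher and 19.6% lower. The list summed to 2381 to 2406 FPKM in shNC and 2308 to 2369 FPKM in shTDP43, a total that hides opposite changes of single markers. Across genes, r was 0.993 to 0.995 between libraries of a group and 0.98 to 0.982 between groups. SNORD3A, a small nucleolar RNA, was low in shNC replicate 1 and shTDP43 replicate 3, at 11500 and 8550 FPKM, against up to 553000 FPKM in the others. The files hold no read totals, so the depth is unknown. The number of genes above 0 was 18217 to 18334 in shNC and 17945 to 18025 in shTDP43. Of 8 tested markers of the mesenchymal type of neuroblastoma cell, 7 were lower and 1 was higher in shTDP43. The list of 12 summed to 368 to 377 FPKM in shNC and 363 to 381 FPKM in shTDP43. Without the marker that was higher, the other 11 summed to 187 to 191 FPKM in shNC and 104 to 105 FPKM in shTDP43. That marker was left out because of its call in these same data. The second sum therefore describes the other 11 only and says nothing about the list as a whole. PRRX1, a defining gene of the mesenchymal type, was at or near 0. Both tested markers of Schwann cells and glia, PMP22 and S100B, were lower, and that list of 8 summed to 20.0 to 21.5 FPKM in shNC against 9.34 to 9.90 FPKM in shTDP43, while GFAP and SOX10 were under 1 FPKM in both groups. Of 2 tested markers of blood, endothelium and epithelium 1 was lower, the epithelial KRT18, with means of 2.17 FPKM in shNC and 0.368 FPKM in shTDP43. KRT18 had enough signal for a test only through its shNC values. The other, EPCAM, did not pass, with means of 0.984 and 1.03 FPKM. The list of 10 summed to 3.44 to 4.27 FPKM in shNC and 1.55 to 2.47 FPKM in shTDP43, and most of that fall lay in KRT18. CD3E and HBB were at 0. The part of these shifts in the receptor results was not tested. In bulk RNA, fewer cells of a type and less RNA per cell cannot be told apart.

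Of the 47 receptor genes, 7 were listed at 0 in all 6 libraries (a value of exactly 0 in such a table can also be a failed estimate), 26 had a mean above 0 but under 1 FPKM, and 14 reached the mean of 1 FPKM required for a test. Among the glutamate receptor genes the highest in shNC were the kainate subunits GRIK2 and GRIK5, at 23.8 ± 0.691 and 11.5 ± 0.301 FPKM (SD, n = 3). GRM8 and GRIN1, with GABBR1 of the GABA receptors, were at 7.20 ± 0.582, 7.14 ± 0.333 and 6.86 ± 0.504 FPKM, and did not differ from one another beyond their spread. In shTDP43 the order changed, with GRM8 at 24.0 ± 0.313 FPKM above GRIK2 at 18.3 ± 0.372 FPKM, and GRIA2 at 10.1 ± 0.468 FPKM above GRIN1 and GABBR1. On the log2(FPKM + 1) scale, which understates the changes of low genes, 8 of the 14 passed the limma test at an adjusted p of 0.05. Of these, 5 rose and 3 fell in shTDP43, while 38.1% of all 13263 tested genes passed (18.5% higher and 19.6% lower). GRIK3, one of the 5, reached the level for a test only through its shTDP43 values, and without it 7 of 13 passed, with 4 higher and 3 lower. The median size of the log2 difference, without regard to sign, was 0.23 in these 14 genes and 0.12 in all tested genes. The groups did not overlap in 9 of the 14 members and in 50.7% of all tested genes.

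**Figure D1:**
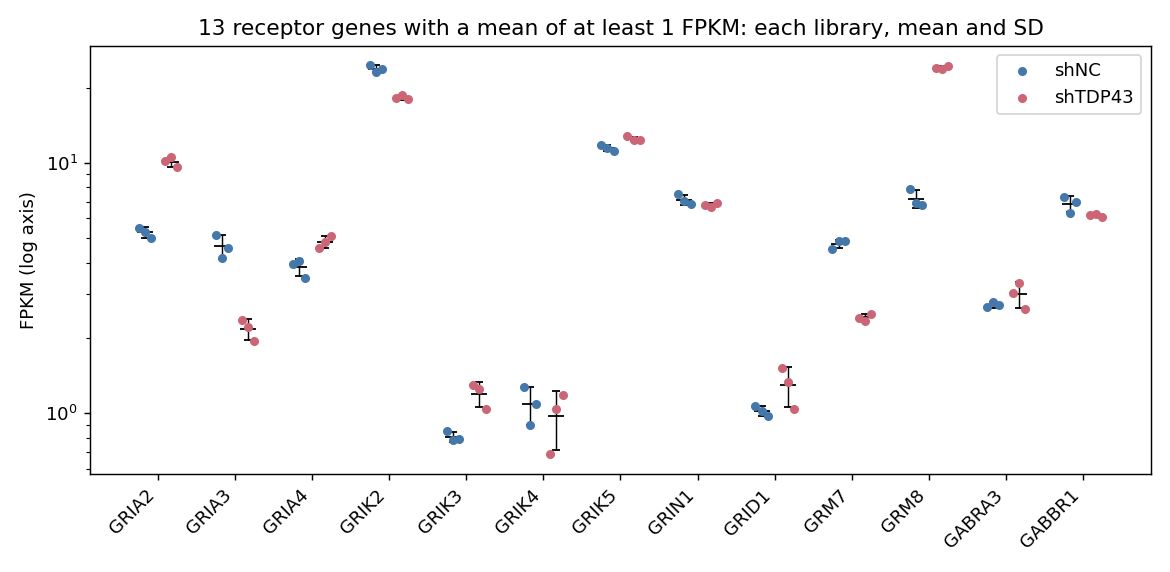
FPKM (log axis) of 13 of the 14 tested receptor genes in each library, with shNC in blue and shTDP43 in red, and black bars for the mean and SD of 3 libraries. GRM8 and GRIA2 lie clearly higher in shTDP43, and GRM7 and GRIA3 clearly lower.

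The metabotropic receptors GRM7 and GRM8 moved in opposite directions. Both belong to group III, whose members sit mainly on presynaptic terminals, couple to inhibitory G proteins and lower transmitter release. GRM8 (GRCh38 chromosome 7, 126438598 to 127252941, minus strand) had 7.86, 6.95 and 6.79 FPKM in shNC and 24.0, 23.8 and 24.4 FPKM in shTDP43. Every shTDP43 library was above every shNC library, a 3.34-fold rise (log2 fold change 1.61, SE 0.05; 95% interval 1.49 to 1.73; limma adjusted p = 3.05e-07). This placed GRM8 at rank 10 by size among the 2448 genes that passed as higher. GRM7 (chromosome 3, 6861115 to 7741533, plus strand) had 4.55, 4.86 and 4.87 FPKM in shNC and 2.41, 2.34 and 2.50 FPKM in shTDP43. It thus fell to 50.8% of control without overlap, at -0.75 on the log2 scale (SE 0.06; 95% interval -0.89 to -0.62; limma adjusted p = 4.51e-05). The remaining members of group III, GRM4 and GRM6, stayed under 0.5 FPKM in every library. As a share of the summed FPKM of all 8 metabotropic receptor genes, GRM8 went from 52.7% ± 2.37 in shNC to 84.3% ± 0.831 in shTDP43 (SD, n = 3), and GRM7 from 34.9% ± 2.52 to 8.47% ± 0.240. The sum itself was 14.2, 13.5 and 13.3 FPKM in shNC and 28.7, 28.3 and 28.6 FPKM in shTDP43.

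The AMPA receptor genes also split. GRIA2 (chromosome 4, 157220120 to 157366075, plus strand) had 5.51, 5.31 and 5.01 FPKM in shNC and 10.2, 10.5 and 9.59 FPKM in shTDP43. All shTDP43 libraries lay above all shNC libraries, a 1.91-fold rise (log2 fold change 0.82, SE 0.05; 95% interval 0.70 to 0.94; limma adjusted p = 1.47e-05). GRIA3 (chromosome X, 123184278 to 123490915, plus strand) fell from 5.18, 4.15 and 4.59 FPKM in shNC to 2.36, 2.203 and 1.95 FPKM in shTDP43. That is 46.8% of control, again without overlap, and the log2 fold change of -0.83 (SE 0.09; 95% interval -1.03 to -0.63; limma adjusted p = 0.000207) was close in size to that of GRIA2. GRIA4 (chromosome 11, 105609994 to 105982090, plus strand) had 3.96, 4.06 and 3.48 FPKM in shNC and 4.57, 4.81 and 5.12 FPKM in shTDP43. It rose to 126% of control (log2 fold change 0.27, SE 0.07; limma adjusted p = 0.0145), a call that was lost when shNC replicate 1 and shTDP43 replicate 3, both low in SNORD3A, were left out together (limma adjusted p = 0.0802). GRIA1, the main partner of GRIA2 in many forebrain synapses, was at 0.0352 to 0.141 FPKM and was not tested.

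The make-up of the AMPA class changed more than its sum. The summed FPKM of the 4 AMPA genes was 13.8 ± 0.816 in shNC and 17.2 ± 0.383 in shTDP43 (SD, n = 3). GRIA2 gave 37.4%, 39.1% and 37.99% of it in the shNC libraries and 59.1%, 59.9% and 57.1% in the shTDP43 libraries. GRIA3 gave 35.1%, 30.6% and 34.8% in shNC and 13.7%, 12.5% and 11.6% in shTDP43. The share of GRIA4 was 27.7% ± 1.89 in shNC and 28.2% ± 2.05 in shTDP43, a difference smaller than its spread. ADAR and ADARB1, the enzymes that edit glutamate receptor RNA, did not pass the test (log2 difference 0.05 with limma adjusted p = 0.144, and -0.06 with limma adjusted p = 0.454). Editing itself was not analysed here.

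**Figure D2:**
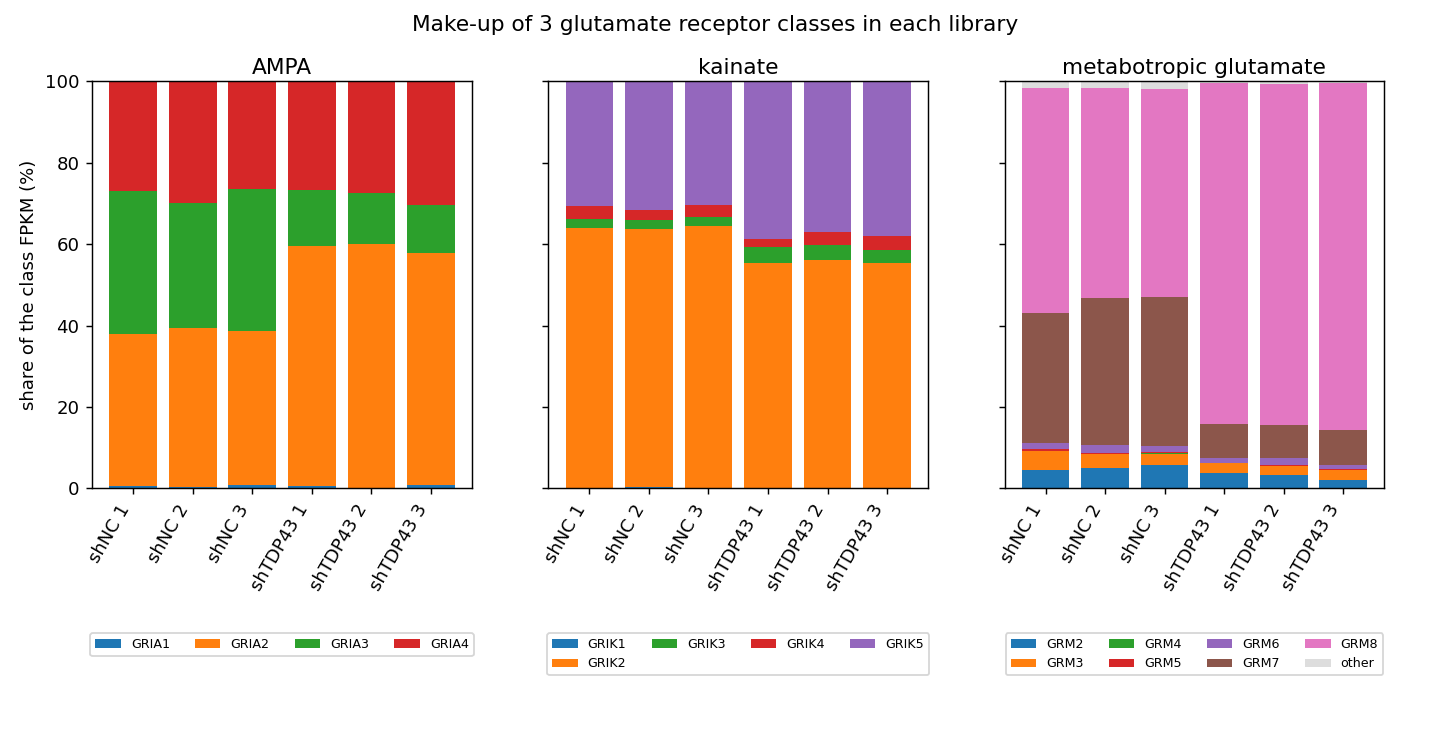
Share (%) of the summed FPKM of the AMPA, kainate and metabotropic glutamate receptor genes that each gene gives, with 1 bar per library and the rest of a class in light grey. In all 3 shTDP43 libraries GRIA2 takes 57.1% to 59.9% of the AMPA class and GRM8 takes 83.8% to 85.2% of the metabotropic class, above every shNC library.

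Among kainate receptor genes, the abundant channel subunit GRIK2 fell and its partner subunit GRIK5 rose slightly. GRIK2 (chromosome 6, 101393708 to 102070083, plus strand) had 24.5, 23.1 and 23.7 FPKM in shNC and 18.2, 18.7 and 18.0 FPKM in shTDP43. It fell to 76.8% of control without overlap (log2 fold change -0.36, SE 0.03; 95% interval -0.44 to -0.29; limma adjusted p = 0.000106). GRIK5 (chromosome 19, 41998324 to 42070206, minus strand), which forms channels only together with a subunit such as GRIK2, had 11.8, 11.5 and 11.2 FPKM in shNC and 12.8, 12.4 and 12.4 FPKM in shTDP43. The groups did not overlap, and GRIK5 passed by a small margin at 109% of control (log2 fold change 0.11, SE 0.04; limma adjusted p = 0.0431). The call was lost without any one of the 6 libraries (limma adjusted p = 0.0546 to 0.128). GRIK3, a related channel subunit, had 0.852, 0.781 and 0.786 FPKM in shNC and 1.29, 1.25 and 1.04 FPKM in shTDP43. It was 148% of control (log2 fold change 0.28, SE 0.09; limma adjusted p = 0.0395). The call for GRIK3 was lost without shNC replicate 1, 2 or 3 (limma adjusted p = 0.0719, 0.0997 and 0.0924), and without the libraries low in SNORD3A (limma adjusted p = 0.0749). GRIK4, a second partner subunit, had 1.27, 0.900 and 1.09 FPKM in shNC and 0.687, 1.05 and 1.19 FPKM in shTDP43, with overlap (limma adjusted p = 0.621). GRIK1 was under 0.1 FPKM in every library. GRIK2 made up 63.9% ± 0.479 of the kainate class in shNC and 55.4% ± 0.476 in shTDP43 (SD, n = 3), and GRIK5 30.9% ± 0.643 and 37.9% ± 0.835.

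**Figure D3:**
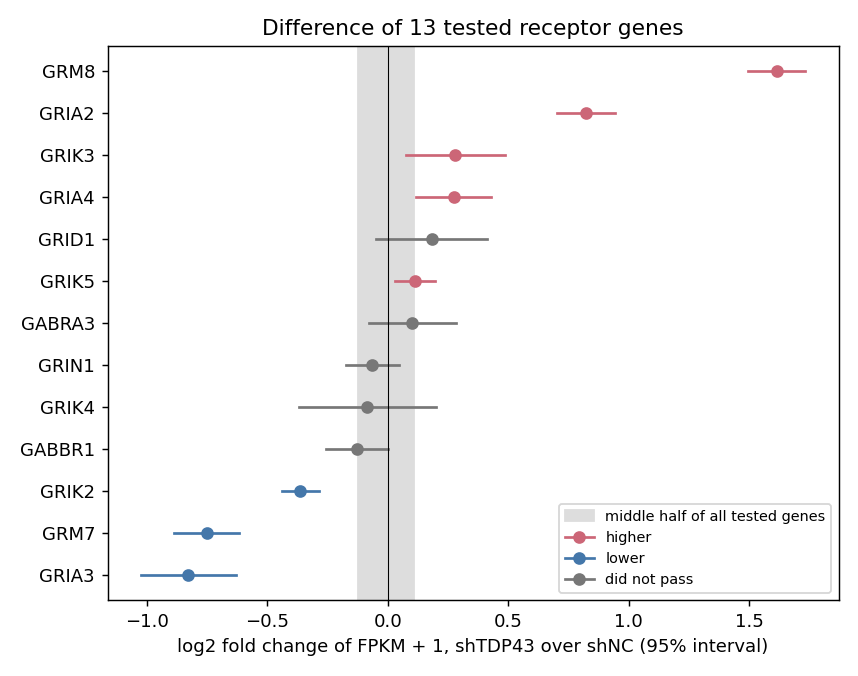
Log2 fold change of FPKM + 1 (shTDP43 over shNC) of 13 tested receptor genes, with the 95% limma interval, beside the range between the lower and upper quartiles of all tested genes (-0.13 to 0.11, grey). GRM8 and GRIA2 lie farthest to the right, and GRIA3, GRM7 and GRIK2 farthest to the left, with intervals that do not reach the grey range.

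GRIN1 and GRID1, of the NMDA and delta classes, did not pass the test. GRIN1 (chromosome 9, 137139154 to 137168756, plus strand), the subunit that every NMDA receptor needs, had 7.50, 7.07 and 6.84 FPKM in shNC and 6.76, 6.66 and 6.90 FPKM in shTDP43. The groups overlapped (log2 difference -0.06, 95% interval -0.17 to 0.05; limma adjusted p = 0.32). LRRC26, on the opposite strand, shares exon positions with GRIN1 and was under 0.5 FPKM in every library. Whether reads were counted by strand was not given in the sources used here. No partner subunit of GRIN1 reached the level for a test. GRIN2B was listed at 0 throughout, GRIN2A was under 0.02 FPKM, and GRIN2C was at 0.154 to 0.462 FPKM. GRIN2D had 0.553, 0.387 and 0.399 FPKM in shNC and 0.792, 0.516 and 0.468 FPKM in shTDP43, and GRIN3A was at 0.493 to 0.678 FPKM over both groups, each with overlap. GRIN3B, which shares exon positions with TMEM259 on the opposite strand, was under 0.1 FPKM. GRID1, a delta subunit that links to synaptic organisers, had 1.07, 1.02 and 0.973 FPKM in shNC and 1.52, 1.33 and 1.04 FPKM in shTDP43 (log2 difference 0.18, 95% interval -0.05 to 0.41; limma adjusted p = 0.188).

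Among the GABA receptor genes, GABRA3 and GABBR1 had enough signal for a test and did not pass it. GABRA3 (chromosome X, 152166234 to 152451315, minus strand), an alpha subunit, had 2.65, 2.79 and 2.70 FPKM in shNC and 3.03, 3.32 and 2.62 FPKM in shTDP43, with overlap (log2 difference 0.10, 95% interval -0.08 to 0.28; limma adjusted p = 0.348). GABBR1 (chromosome 6, 29602238 to 29633183, minus strand) had 7.30, 6.31 and 6.97 FPKM in shNC and 6.19, 6.27 and 6.08 FPKM in shTDP43. Here the groups did not overlap, but shNC replicate 2 lay next to the shTDP43 libraries and the test was not passed (log2 difference -0.13, 95% interval -0.26 to 0.00; limma adjusted p = 0.109). Without shNC replicate 2 it passed as lower (limma adjusted p = 0.0416). GABBR2, which GABBR1 needs to reach the cell surface as a working receptor, was at most 0.0155 FPKM.

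The GABA-A receptor genes GABRD and GABRG3 were at low levels. GABRD, whose product is found outside synapses, had 0.973, 0.834 and 0.889 FPKM in shNC and 0.333, 0.272 and 0.166 FPKM in shTDP43. GABRG3 had 1.15, 0.749 and 0.862 FPKM in shNC and 0.396, 0.546 and 0.447 FPKM in shTDP43. Neither pair of groups overlapped, and both genes were under the mean of 1 FPKM required for the test. GABRG1 was listed at 0 throughout. GABRQ was at 0.234 to 0.712 FPKM with overlap. The alpha genes GABRA2 and GABRA6 were at 0 in every library, as were GABRE and GABRR3. Of the remaining subunits, GABRA4, GABRA5, GABRB1, GABRB2 and GABRR1 stayed under 0.1 FPKM, and GABRP and GABRR2 under 0.25 FPKM.

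Without a filter on low values, 26 further members could be fitted. Of these, 1 passed as higher and 3 as lower, where 2245 of all 19907 genes in that fit passed as higher and 2656 as lower. GABRD (log2 fold change -0.60; limma adjusted p = 0.00123) and GABRG3 (-0.39; limma adjusted p = 0.0215) were among those that passed as lower, and GRM6 did not pass (0.17; limma adjusted p = 0.0959). At such levels the scale with 1 FPKM added understates a change, and the lower number of genes above 0 in shTDP43 moves in the same direction as both falls. Its part was not tested. The group II receptors GRM2 (0.64, 0.673 and 0.764 FPKM in shNC; 1.12, 0.921 and 0.589 FPKM in shTDP43) and GRM3 (0.66, 0.449 and 0.354 FPKM in shNC; 0.66, 0.635 and 0.714 FPKM in shTDP43) overlapped between groups and did not pass. GRM5, the main group I receptor of forebrain neurons, was at most 0.0508 FPKM.

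**Figure D4:**
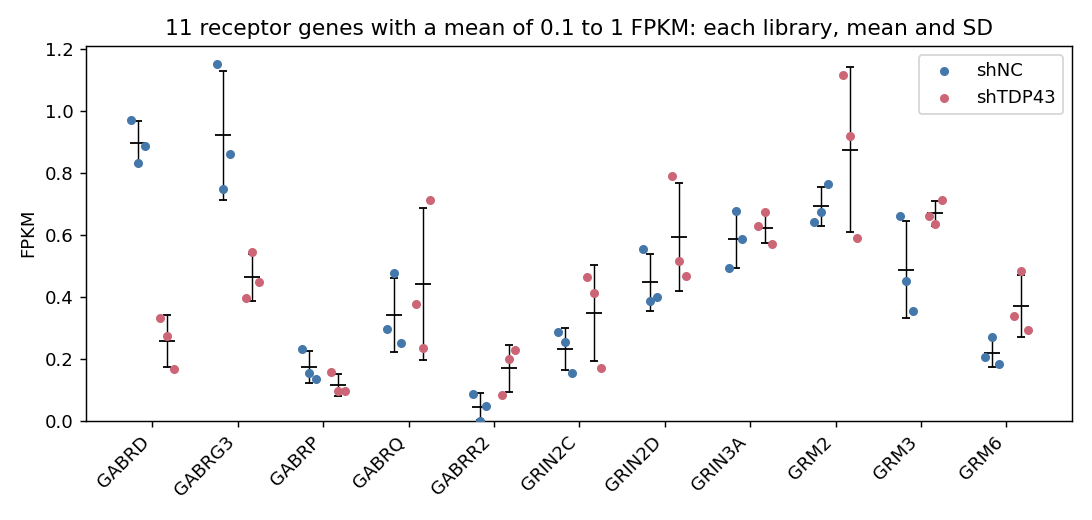
FPKM of 11 receptor genes with a mean of 0.1 to 1 FPKM in each library, with black bars for the mean and SD of 3 libraries. GABRD and GABRG3 lie lower in all 3 shTDP43 libraries, GRM6 lies higher, and most others overlap.

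Genes that act with these receptors were taken from 4 lists chosen by function. Of 50 genes for auxiliary subunits, scaffolds and trafficking factors, 39 were tested, and 10 were higher and 10 lower (median log2 fold change -0.04, against 0.00 in all tested genes, of which 18.5% were higher and 19.6% lower). Among the tested genes that passed, the largest changes were in GABARAPL1, a GABARAP relative that works in membrane traffic and autophagy, which fell to 52.7% of control, and in DLG2, a scaffold of NMDA receptors, which fell to 62.7% (limma adjusted p = 1.89e-05 and 3.65e-05). KCTD16, an auxiliary subunit of GABA-B receptors, rose to 169% of control (limma adjusted p = 0.000934). GRIP1, a scaffold that binds GRIA2 and GRIA3, was under the level for a test with 1.30, 1.39 and 1.30 FPKM in shNC and 0.314, 0.131 and 0.105 FPKM in shTDP43; it was singled out after its values were seen. When both libraries low in SNORD3A were left out, 4 genes of this list were higher and 5 lower. Of all 13259 genes tested in that setting, 1563 were higher and 1760 lower, against 2448 and 2606 of 13263 with all libraries.

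In the list for synthesis, transport and breakdown of the transmitters, 13 of 27 genes were tested, with 3 higher and 3 lower (median -0.05), that is 6 of 13 called where 38.1% of all tested genes were. SLC1A2, a glutamate uptake transporter best known from astrocytes, had 2.02 ± 0.0327 FPKM in shNC and rose to 3.43 ± 0.127 FPKM in shTDP43 (limma adjusted p = 0.000322; SD, n = 3). GOT1, an aspartate aminotransferase that makes and uses glutamate, fell to 76.8% of control and the neutral amino acid carrier SLC1A4 to 84.3%. Without shNC replicate 1 the number lower was 1, where 2122 of all 13238 tested genes were lower. The GABA-synthesising GAD2 was at 0 and GAD1 near 0, at 0.0283 ± 0.0490 and 0.0290 ± 0.00174 FPKM. The vesicular glutamate transporters SLC17A6, SLC17A7 and SLC17A8 were all under 1 FPKM.

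Effectors and chloride transporters fell more often than they rose, with 10 of 20 tested genes lower and 3 higher (median -0.09), and 19.6% of all tested genes lower. GNA11, a G protein subunit that couples group I receptors to phospholipase C, rose to 168% of control (limma adjusted p = 9.79e-06). The potassium-chloride cotransporter SLC12A7 fell to 38.8% and the calcium-dependent kinase CAMK2D to 70.7% of control. The number lower was 6 without shNC replicate 1 and 5 without both libraries low in SNORD3A. Calls also became fewer among all tested genes. There 2122 of 13238 and 1760 of 13259 were lower in these settings, against 2606 of 13263 with all libraries. Of 10 tested RNA editing enzymes and regulators of receptor genes, 3 were higher and 1 was lower (median -0.01), that is 4 of 10 called where 38.1% of all tested genes were. PTBP1, a splicing repressor of neuronal exons, rose to 135% of control (limma adjusted p = 1.67e-05), NOVA2 rose to 119% and RCOR1 to 113%. The calls for NOVA2 and RCOR1 were lost without some single libraries, so that only PTBP1 was higher without shNC replicate 2, without shNC replicate 3 or without shTDP43 replicate 2. The gene called lower was PTBP2, at 93.4% of control (limma adjusted p = 0.0281), and it was not called without shNC replicate 1, 2 or 3 or shTDP43 replicate 3.

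**Figure D5:**
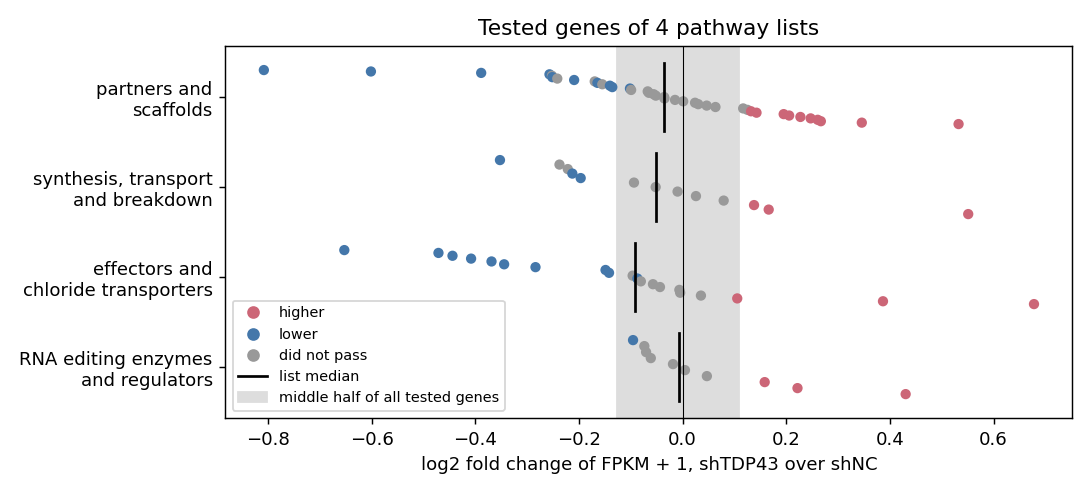
Log2 fold change of FPKM + 1 (shTDP43 over shNC) of each tested gene of the 4 lists, with list medians as black lines and the range between the quartiles of all tested genes in grey (-0.13 to 0.11). Points are coloured by the limma call; 10 effectors and chloride transporters lie lower and 3 higher, and the partners split 10 to 10.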

How the data were processed

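The authors deposited 1 table of FPKM values per gene symbol and library (26372 symbols, 6 libraries). Per the submitters' processing notes, the tools were TopHat2 2.1.0, SAMtools and Cuffdiff 2.2.1, and the build was hg38. The annotation, strand use, treatment of reads with several matches and any further scaling were not given in the sources used here, and no read depth can be derived. After 1 FPKM was added and log2 taken, limma 3.58.1 was run in R 4.3.3, with group as the only term, a variance trend, two-sided tests and Benjamini-Hochberg adjustment over the 13263 genes whose mean reached 1 FPKM. Folds and percentages of control are ratios of mean FPKM, and shares are of summed FPKM within a receptor class. The fit was tested on simulated data.

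The naming rule took the tested members, members with a library of at least 0.5 FPKM and, in each of the 4 pathway lists, the 3 largest changes that passed. Some of these genes are not reported here. GRM6, GRIP1, PTBP2 and the other members under 0.5 FPKM were named after their values were seen. The members and lists were chosen with earlier results of these data known. Locations and start windows came from RefSeq (GRCh38.p14, the assembly of hg38) and transcripts from GENCODE release 29. Alternatives covered the pseudocount, the filter, scaling, the variance trend, a replicate block, and leaving out libraries.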

Additional observations from a re-analysis of the deposited data

How the results depend on the processing

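The directions of GRM8, GRIA2, GRIA3, GRM7 and GRIK2 and their calls held under every alternative that could be run for them, with log2 fold changes of 1.58 to 1.73, 0.79 to 0.92, -1.06 to -0.71, -0.95 to -0.70 and -0.38 to -0.33. The smaller rises were less stable: the number of receptor genes called higher was 3 in place of 5 with a mean of at least 5 FPKM, 3 without each replicate in turn, and 2 without both libraries low in SNORD3A. The number called lower was 6 without a filter and 1 with a mean of at least 5 FPKM, where 7 members are tested. Without both libraries low in SNORD3A, 1563 of all 13259 tested genes were called higher and 1760 lower, against 2448 and 2606 of 13263 with all libraries. In that setting 4 partners and scaffolds were higher and 5 lower, 1 gene of synthesis and transport was lower, 5 effectors and chloride transporters were lower, and 0 editing enzymes and regulators were lower. The last number was 0 without a variance trend and 2 without a filter. Without each replicate in turn, 1 to 4 synthesis and transport genes were lower, 6 to 9 effectors were lower, and 1 to 3 editing enzymes and regulators were higher and 0 to 1 lower. In the same fits 1932 to 2093 of all tested genes were higher and 2077 to 2292 lower. The small difference of GRIK4, which did not pass, changed sign: it was at 0.014 with quantile normalization and 0.023 without shTDP43 replicate 1 (-0.152 to 0.023 without each replicate that left it testable). The cause was not tested, apart from the fewer genes or libraries that some settings leave.

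Same-numbered libraries showed no clear common deviation (correlations of -0.0683, 0.0644 and 0.112 for numbers 1, 2 and 3). Not every library correlated best with its own number. The numbers were therefore not treated as pairs, although 3 libraries per group are too few to exclude pairing. With a replicate block, 3 receptor genes were higher, with GRIK3 (limma adjusted p = 0.0665) and GRIK5 (limma adjusted p = 0.0685) no longer called. Depth is unknown, so that differences among genes under 1 FPKM may be below what these libraries can show.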
